A study of Homo sapiens with 12 samples.

Results

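The complement system is a cascade of plasma and membrane proteins best known from the liver and from immune cells, but fibroblasts transcribe many of its genes as well. Expression of 9 complement genes, *C3*, *CFB*, *CFD*, *CFI*, *C1R*, *C1S*, *CD46*, *CD55* and *CD59*, was examined in RNA-seq counts of human fibroblasts undergoing oncogene-induced senescence (OIS), with and without knockdown of *XPO7*, the gene of the nuclear transport receptor exportin 7. The 9 genes were chosen by symbol among the 62069 genes of the count table, with earlier results of these data known. Of them, 7 passed a filter on low counts and were tested, whereas *CFB* and *CFD* did not pass and are given as values.

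The cells were IMR90 ER:RAS, a line of human lung fibroblasts that carries RAS fused to the oestrogen receptor, so that 4-hydroxytamoxifen (4OHT) switches RAS signalling on. There were 4 groups of 3 libraries, each at passage 13 and day 5. Non-induced cells (replicates T, A and C) received no 4OHT; induced cells (T, A and B) received 100 nM 4OHT; and 2 further induced groups (T, A and B in each) carried 1 of 2 shRNAs against *XPO7*, shXPO7_3 or shXPO7_5. The study describes a control vector in cells without an *XPO7* shRNA, but the labels do not name it. Whether replicate libraries stem from separate cultures is not stated, and p-values thus measure how far these libraries scatter, a scatter that may be technical. In such bulk RNA, fewer cells that express a gene and less RNA of it per cell cannot be told apart.

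Complement activation starts by a classical, a lectin or an alternative route. In the classical route, C1q recruits the serine proteases C1r and C1s, and C1r activates C1s. In the lectin route, collectins and ficolins take the place of C1q, and the MASP proteases that of C1r and C1s. In the alternative route, factor D (*CFD*) cleaves factor B (*CFB*) bound to C3b, which forms an enzyme that cleaves more C3. All routes meet at C3. Host cells limit the cascade with CD46, a cofactor for the cleavage of C3b by factor I (*CFI*), with CD55, which takes apart the enzymes that cleave C3, and with CD59, which blocks assembly of the membrane attack complex.

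Promoter letters are shown for genes whose response to induction is described here. RefSeq (GRCh38.p14) windows from 250 bases before to 50 bases after an annotated start were found for 7 of the 9 genes; *C3* and *C1S* had none. Both strands were searched for 5 motifs: TTGCNNAA for C/EBP factors, TTCNNNGAA for STAT factors (GAS), TGANTCA for AP-1, and, by name alone, those of NF-kB and of interferon-regulated promoters (ISRE). Of 35116 windows of this length, 10.5% held the C/EBP motif, 7.66% GAS, 7.71% AP-1, 5.91% NF-kB and 3.57% ISRE. The windows of *C1R*, the member that fell most on induction, held C/EBP and GAS letters, that of *CFB* held GAS and ISRE letters, and *CD59* was the only member with AP-1 letters (besides C/EBP and GAS letters in its other windows). In the stretches shown, each 30 bases long and read 5′ to 3′ on the strand of the gene, capitals mark the motif. The first *C1R* stretch lies at chr12:7092042-7092071, the second at chr12:7091960-7091989 and the third, upstream of another start, at chr12:7092533-7092562 (all minus strand). Those of *CFB* lie at chr6:31945945-31945974 and chr6:31945993-31946022 (plus strand), and that of *CD59*, in 1 of its 4 windows, at chr11:33722732-33722761 (minus strand). This *CD59* window held 3 AP-1 matches, of which 1 is shown.
C1R, C/EBP: cccagacgctcTTGCTGAAcctgtgggagc
C1R, GAS: gccagtcctaTTCCTGGAAggggaggggag
C1R, C/EBP at the other start: agatcttttgtTTATGCAAatagttcattc
CFB, ISRE: acttctgcagTTTCTGTTTCcttgactggc
CFB, GAS: cgcttggatgTTCCGGGAAagtgatgtggg
CD59, AP-1: cagtggctataTGAGTCAatttgctcatat
The windows of *CD46*, *CD55*, *CFD* and *CFI* held none of the 5 motifs. A match describes letters in a window and is not evidence of binding.

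Totals ran from 28534141 to 60397769 counts per library. *XPO7* stood at 129 to 144 CPM (counts scaled to a common library total) in the 6 libraries without an *XPO7* shRNA, at 26.4 to 28.7 CPM with shXPO7_3 (20.3% of the induced mean) and at 50.8 to 54.0 CPM with shXPO7_5 (38.2%). All 7 fibroblast markers were expressed, summing to 11510 to 21811 CPM in the 6 libraries without an *XPO7* shRNA. On induction 5 of the 7 passed as lower and 0 as higher (edgeR, adjusted p below 0.05), against 26.1% of all genes tested lower. The largest fall among the 7 was that of *DCN* (decorin), from 987 to 95.6 CPM. Markers of most other cells were low. The 5 hepatocyte markers summed to at most 0.146 CPM in any library, with *TTR* and *FGB* at 0; the 6 leukocyte markers to 0.802 to 1.72 CPM, with *CD3E* at 0; and of the 3 endothelial genes *PECAM1* and *CDH5* were at 0, but *VWF* stood at 1.70 to 2.81 CPM in non-induced and 2.905 to 3.498 CPM in induced cells (edgeR, adjusted p = 0.05213). The 4 epithelial markers summed to 31.2 to 37.7 CPM in non-induced cells, nearly all of it *KRT19*, and to 1.75 to 3.11 CPM in the 9 induced libraries; *SFTPC* was at 0 and *EPCAM* at no more than 1.11 CPM. Libraries shXPO7_3 T, shXPO7_5 T and shXPO7_5 B stood apart in base composition: relative to the induced mean, the levels of their genes rose with the GC content of the transcript (Spearman correlation across genes of 0.575, 0.611 and 0.787, against -0.344 to 0.115 in the other 3 knockdown libraries). Induced B (0.317) and non-induced T (0.306) leaned the same way by less. Against the mean of its own group, non-induced T stood at 0.587.

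The 9 genes covered a wide range of levels. Per kilobase of annotated exon, *CD59* was highest in non-induced cells at 85.5 ± 2.48 CPM (mean ± SD, n = 3, here and throughout), followed by *C1S* at 41.8 ± 1.49, *C1R* at 20.6 ± 0.50, *CD46* at 14.3 ± 2.07 and *CD55* at 2.90 ± 0.12. *CFD* at 0.211 ± 0.046, *CFI* at 0.0671 ± 0.0215, *C3* at 0.0650 ± 0.0152 and *CFB* at 0.0279 ± 0.0033 CPM per kilobase were far lower, and *CFI* and *C3* did not differ beyond their spread. In induced cells *CD59* (97.6 ± 2.63) and *C1S* (22.5 ± 0.17) kept the first ranks, but *CD46* (20.6 ± 1.21) then stood above *C1R* (5.26 ± 0.12), and *C3* (0.184 ± 0.008) stood above *CFD* (0.0634 ± 0.0431), *CFI* (0.0367 ± 0.0256) and *CFB* (0.0164 ± 0.0069), which did not differ beyond their spread. Thus the membrane regulators and the C1 proteases were well expressed, and *CFB*, *CFD* and *CFI* were at 0 to 15 counts per library.

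**Figure D1:**
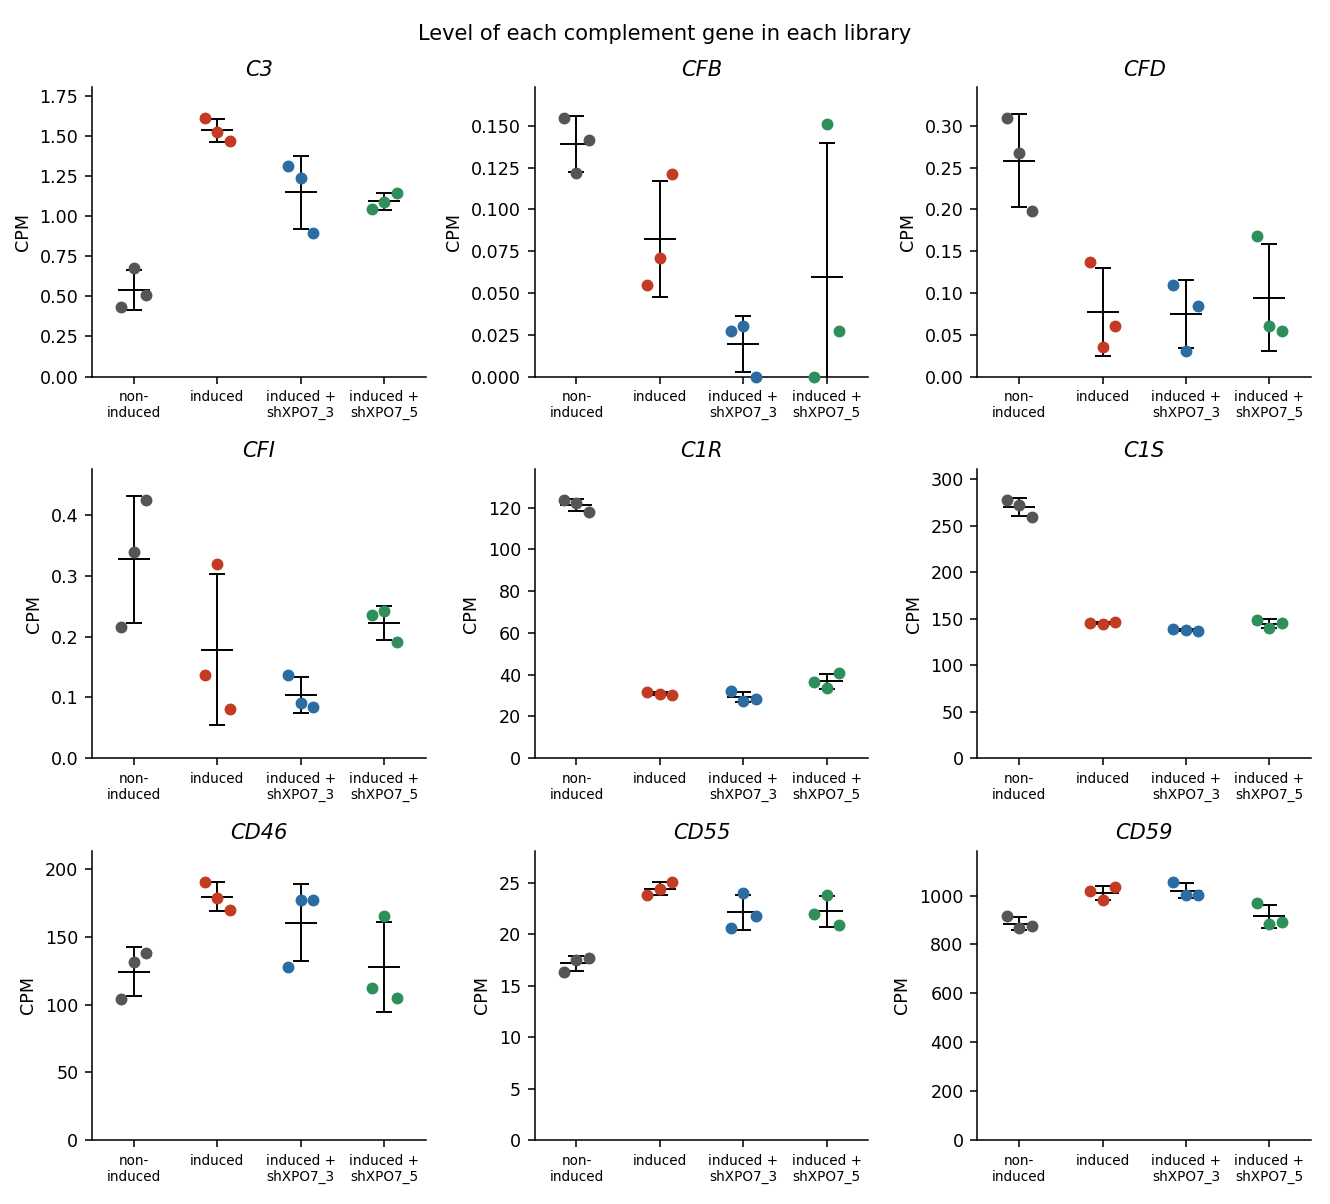
Level of each of the 9 complement genes in each library, in CPM (linear axes from 0, 1 scale per gene). Points are libraries, horizontal bars means and whiskers 1 SD (n = 3; cut off at 0 for *CFB* with shXPO7_5); *C1R* and *C1S* are lower in all 9 induced libraries than in the 3 non-induced ones, and *CFB*, *CFD* and *CFI* stay at or under 0.425 CPM.

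Induced cells were first compared with non-induced cells, to ask what OIS did to these genes. Of the 7 genes tested, 4 rose (*C3*, *CD46*, *CD55* and *CD59*) and 2 fell (*C1R* and *C1S*), by edgeR's quasi-likelihood test with Benjamini-Hochberg adjustment over 15284 genes at 0.05. Changes on induction were common: 50.9% of all genes tested passed, 24.8% higher and 26.1% lower, so the share of members that passed is to be read against that background. Their median log2 fold change by role was -1.43 for the 2 C1 proteases and 0.51 for the 3 membrane regulators, against -0.01 over all genes. Thus the 2 proteases that start the classical route were lower and the 3 regulators that protect the cell surface higher. Whether direction depended on role was not tested.

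Both C1 proteases fell, *C1R* furthest of the members tested. *C1R* stood at 124, 122 and 118 CPM in non-induced replicates T, A and C and at 31.7, 30.9 and 30.3 CPM in induced replicates T, A and B. The groups were far apart, and all 3 induced libraries lay close together. The fall was 3.91-fold (log2 fold change -1.97, SE 0.086; edgeR quasi-likelihood test, adjusted p = 2.328e-09), and 3.39% of all genes tested fell more. *C1S*, whose product cleaves C4 and C2, stood at 278, 273 and 259 CPM in non-induced cells and at 145, 144 and 147 CPM in induced cells. Again no induced library came near the non-induced ones, but the fall was smaller, at 1.86-fold (log2 fold change -0.89, SE 0.054; edgeR quasi-likelihood test, adjusted p = 4.494e-08). The epithelial marker *KRT19* moved the same way on induction, from 33.6 to 2.01 CPM (log2 fold change -4.06; edgeR, adjusted p = 7.822e-10), and its part in the result of either gene was not tested.

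The ratio of the C1 proteases shifted as well. There were 0.449 ± 0.005 *C1R* counts per *C1S* count in non-induced cells and 0.213 ± 0.006 in induced cells, with ranges of 0.445 to 0.455 and 0.206 to 0.218. The 95% intervals of the log2 fold changes did not meet, at -2.16 to -1.78 for *C1R* and -1.01 to -0.77 for *C1S*. In the GENCODE annotation (GRCh38) both genes lie on chromosome 12, *C1S* at 6988259 to 7071032 (plus strand) and *C1R* at 7080199 to 7092607 (minus strand). *C1R* shares 11.4% of its exon bases with its neighbour *C1RL* on the same strand, and how reads in shared exons were counted is not given in the sources used here; *C1RL* held 270 to 655 counts per library, against 873 or more for *C1R*.

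**Figure D2:**
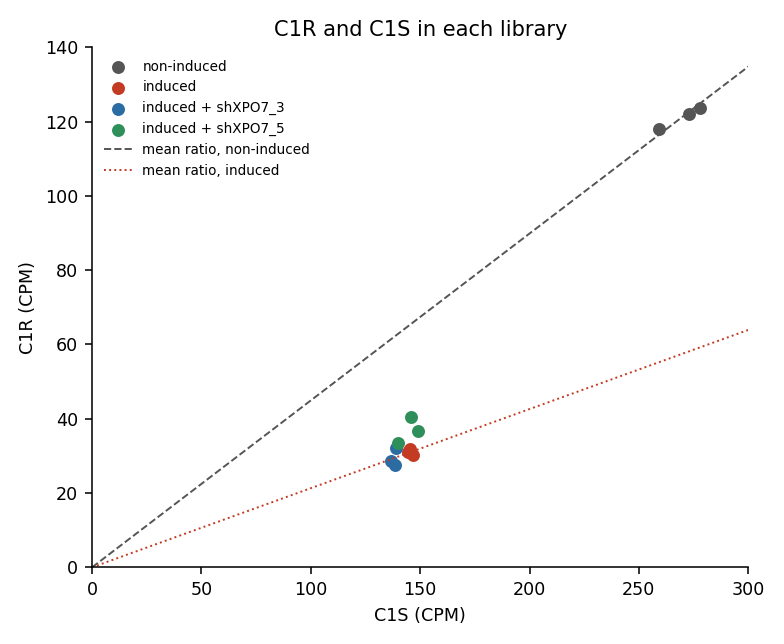
*C1R* against *C1S* level in each of the 12 libraries, both in CPM. Lines show the mean ratio in non-induced (0.449, dashed) and induced cells (0.213, dotted); the 9 induced libraries form 1 cloud at 27.5 to 40.6 CPM of *C1R*, far from the non-induced libraries at 118 to 124.

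*C3*, the shared substrate of all routes, rose from a low level. Its counts were 14, 28 and 18 in non-induced replicates T, A and C (0.433, 0.680 and 0.510 CPM) and 59, 43 and 73 in induced replicates T, A and B (1.61, 1.52 and 1.47 CPM). The groups did not overlap. The rise was 2.79-fold (log2 fold change 1.48, SE 0.205; edgeR quasi-likelihood test, adjusted p = 6.858e-05), and 4.19% of all genes tested rose more. At these counts it is *C3* mRNA at the edge of detection that differs, on 60 reads in the 3 non-induced and 175 in the 3 induced libraries. The level of *C3* moved with that of the leukocyte marker list, which summed to 0.802 to 1.11 CPM in non-induced and 1.17 to 1.42 CPM in induced cells, while the sum of the hepatocyte list, whose cells are the main source of C3 in the body, was 0.0283 to 0.146 CPM and 0.0273 to 0.0403 CPM. The part of such cells in the *C3* result was not tested.

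The other alternative pathway genes were lower still. *CFI* had 7, 14 and 15 counts in non-induced replicates T, A and C and 5, 9 and 4 in induced replicates T, A and B. The groups overlapped, and the log2 fold change of -1.005 (SE 0.440) did not pass (edgeR quasi-likelihood test, adjusted p = 0.07526). The call turned on single libraries: without non-induced T the value was -1.22 (edgeR, adjusted p = 0.04617), and without induced A, the induced library with the most *CFI*, it was -1.61 (edgeR, adjusted p = 0.01158). In the annotation *CFI* also shares 32.04% of its exon bases with a readthrough gene that the count table does not list.

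*CFD* had 10, 11 and 7 counts in the non-induced libraries and 5, 1 and 3 in the induced ones. Every induced library was below every non-induced one, but 3 libraries against 3 cannot give an exact two-sided permutation p below 0.1, which is the value found. With genes of any count admitted, the log2 fold change of *CFD* was -1.66 (edgeR quasi-likelihood test, adjusted p = 0.05567). *CFB* had 5 counts in each non-induced library and 2, 2 and 6 in induced replicates T, A and B, or 0.121 to 0.154 against 0.0547 to 0.121 CPM, and a difference was not detectable at this depth (without the filter, edgeR, adjusted p = 0.5979). In the annotation 45.0% of the exon bases of *CFB* also belong to a *C2*-*CFB* readthrough gene, which held 0 counts in every library. Had reads in shared exons been discarded, *CFB* would be under-counted, and whether they were is not given.

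The membrane regulators rose together, but by less. *CD46* stood at 104, 131 and 138 CPM in non-induced replicates T, A and C and at 191, 179 and 169.8 CPM in induced replicates T, A and B. The groups did not overlap, and non-induced T was the lowest by a wide margin. The rise was 1.45-fold (log2 fold change 0.53, SE 0.176; edgeR quasi-likelihood test, adjusted p = 0.02393). That call rested on its libraries: it was lost when non-induced T (0.42, adjusted p = 0.08601), non-induced A (0.56, adjusted p = 0.05297), induced T (0.49, adjusted p = 0.07132) or induced A (0.54, adjusted p = 0.05293) was left out of the edgeR fit.

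The spread of *CD46* followed the base composition of the libraries. Its transcripts have a GC content of 37.8%, and 3.56% of the genes tested have a lower one (median 48.8%). After an offset for GC content and length was fitted to each library, *CD46* stood at 131, 125 and 112 CPM in non-induced and at 165, 156 and 168 CPM in induced cells. The rise was then 0.41 on the log2 scale with an SE of 0.054 (edgeR quasi-likelihood test, adjusted p = 1.46e-05). Thus the size of the change was lower with the offset, and its error was lower too.

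*CD55* stood at 16.3, 17.5 and 17.7 CPM in non-induced replicates T, A and C and at 23.8, 24.4 and 25.1 CPM in induced replicates T, A and B. Both groups were tight and did not overlap. The rise of 1.42-fold (log2 fold change 0.51, SE 0.081; edgeR quasi-likelihood test, adjusted p = 0.000207) was close in size to that of *CD46*, with a smaller error. In the annotation both genes lie on chromosome 1, *CD46* at 207752057 to 207795513 and *CD55* at 207321376 to 207386804.

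*CD59*, the most abundant member, stood at 915, 868 and 874 CPM in non-induced replicates T, A and C and at 1017, 981 and 1034 CPM in induced replicates T, A and B. The groups did not overlap, but the gap was small against the level. The rise was 1.14-fold (log2 fold change 0.19, SE 0.056; edgeR quasi-likelihood test, adjusted p = 0.01362). It depended on scaling: upper-quartile factors, which moved the median over all genes from -0.01 to -0.10, gave 0.09 for *CD59* (edgeR, adjusted p = 0.3435). It was also lost without non-induced A (0.17, edgeR, adjusted p = 0.05993) or induced B (0.16, edgeR, adjusted p = 0.05625).

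**Figure D3:**
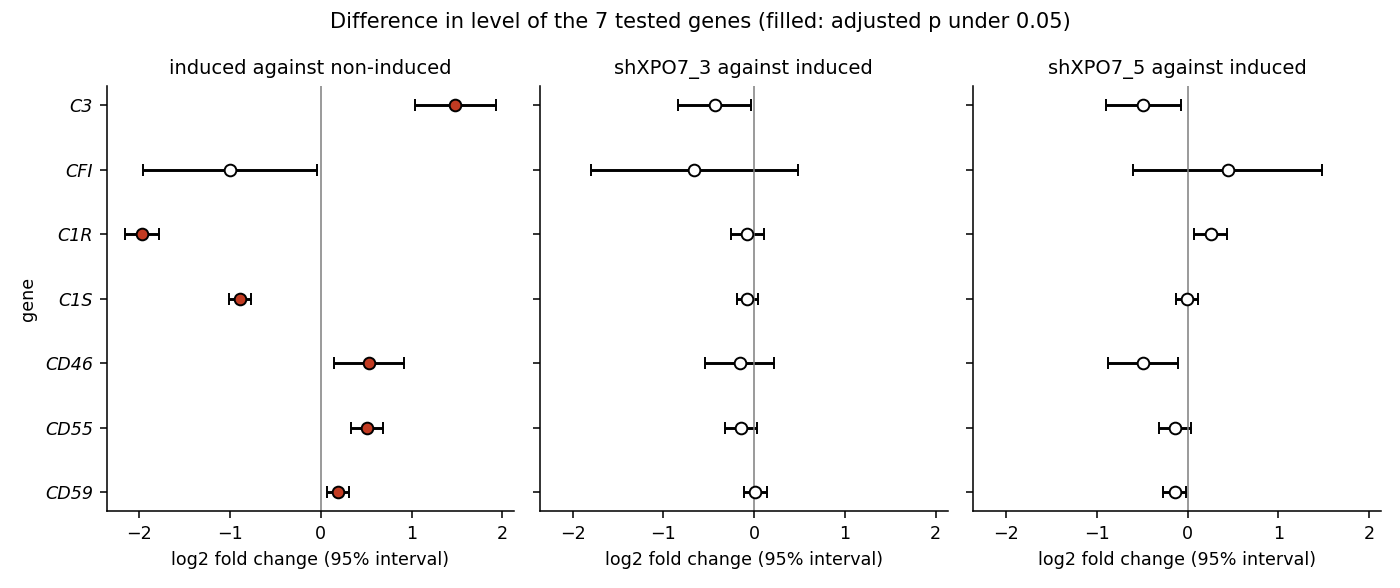
Log2 fold change with 95% interval of the 7 tested genes in 3 comparisons. Filled points passed at an adjusted p of 0.05; 6 of 7 did on induction, with *C1R* (-1.97) and *C3* (1.48) at the extremes, and 0 of 7 did with either shRNA.

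The shRNA groups were then compared with induced cells, to ask whether the levels of OIS depended on *XPO7*. With shXPO7_3, 0 of the 7 tested members passed edgeR's test, against 0.124% of all genes (19 genes), and 1 had an unadjusted p below 0.05, as did 6.41% of all genes. With shXPO7_5, 0 of 7 passed, against 0.589% of all genes (90 genes), and 4 had an unadjusted p below 0.05 (*C3*, *C1R*, *CD46* and *CD59*), as did 21.6% of all genes. DESeq2 called 0 of the 7 in both comparisons. Since so few genes passed in all, the members' count says little about them. Both comparisons share the 3 induced libraries, so that their values are not independent.

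*C3* was at 1.32, 1.24 and 0.893 CPM in shXPO7_3 replicates T, A and B and at 1.04, 1.09 and 1.15 CPM in those of shXPO7_5. All 6 libraries lay below the induced ones (1.47 to 1.61 CPM) and above the non-induced ones (0.433 to 0.680 CPM). The differences from induced cells did not pass, at -0.44 on the log2 scale for shXPO7_3 (SE 0.185; edgeR, adjusted p = 0.7064) and -0.49 for shXPO7_5 (SE 0.190; edgeR, adjusted p = 0.2029), with counts of 31 to 53 per library.

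*C1R* was at 32.2, 27.5 and 28.5 CPM in shXPO7_3 replicates T, A and B and at 36.7, 33.4 and 40.6 CPM in those of shXPO7_5. The 3 libraries of shXPO7_5 lay above every induced library (30.3 to 31.7 CPM), those of shXPO7_3 on both sides of them, and all 6 were far below the non-induced 118 CPM or more. The log2 difference from induced cells was -0.07 for shXPO7_3 (95% interval -0.26 to 0.11; edgeR, adjusted p = 0.9995) and 0.25 for shXPO7_5 (0.07 to 0.44; edgeR, adjusted p = 0.1654). Without shXPO7_5 A the latter was 0.32 and passed (edgeR, adjusted p = 0.03538), in a fit that called 3634 genes in all. With the GC and length offset it was 0.13 (edgeR, adjusted p = 0.1625). *C1S* was at 137 to 139 CPM with shXPO7_3 and 139.9 to 149 CPM with shXPO7_5, close to the induced 144 to 147 CPM, and its 95% intervals ran from -0.19 to 0.04 and from -0.12 to 0.11. There were 0.213 ± 0.017 *C1R* counts per *C1S* count with shXPO7_3 and 0.255 ± 0.021 with shXPO7_5.

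*CD46* was at 128, 177 and 177 CPM in shXPO7_3 replicates T, A and B and at 112, 166 and 105 CPM in those of shXPO7_5. The 3 low libraries were the same 3 that stood apart in base composition, and the other 3 lay at 166 to 177 CPM. The log2 difference of -0.49 with shXPO7_5 (SE 0.176; edgeR, adjusted p = 0.1818) did not pass, nor did that of -0.16 with shXPO7_3 (SE 0.175; edgeR, adjusted p = 0.9995). Without shXPO7_5 A the former was -0.73 and passed (edgeR, adjusted p = 0.02539). With the GC and length offset, all 6 knockdown libraries lay at 143 to 154 CPM against 156 to 168 CPM in induced cells, and the differences were -0.10 (SE 0.054; edgeR, adjusted p = 0.3052) for shXPO7_5 and -0.15 (SE 0.053; edgeR, adjusted p = 0.178) for shXPO7_3. Without the 3 libraries, an alternative chosen after seeing the data that leaves 1 library of shXPO7_5 assumed to vary like the other groups, the values were -0.12 and -0.02.

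**Figure D4:**
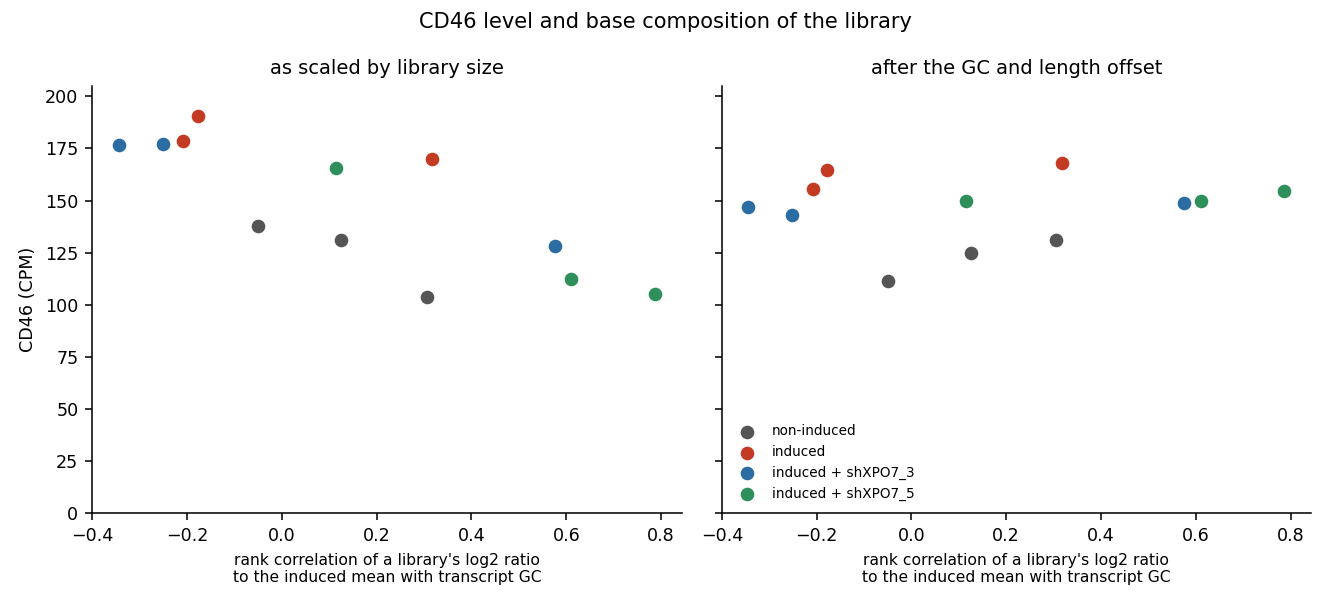
*CD46* level (CPM) in each of the 12 libraries against the rank correlation, across genes, of the library's log2 ratio to the induced mean with transcript GC content. On the left, levels scaled by library size, where the 3 knockdown libraries at the right edge stand at 105 to 128 CPM; on the right, levels after the GC and length offset, where all 6 knockdown libraries stand at 143 to 154 CPM.

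*CD55* was at 20.6, 24.0 and 21.8 CPM in shXPO7_3 replicates T, A and B and at 21.9, 23.8 and 20.9 CPM in those of shXPO7_5, against 23.8 to 25.1 CPM in induced cells. The highest library of shXPO7_3 lay within the induced range and that of shXPO7_5 just below it, and the 95% intervals of the log2 difference ran from -0.32 to 0.03 and from -0.31 to 0.04. *CD59* was at 1057, 1003 and 1002 CPM with shXPO7_3, within and just above the induced 981 to 1034 CPM, and at 968, 886 and 890.1 CPM with shXPO7_5, below it. The log2 difference of *CD59* was 0.01 for shXPO7_3 (-0.11 to 0.14) and -0.14 for shXPO7_5 (-0.27 to -0.02; edgeR, adjusted p = 0.2035). The GC and length offset turned the direction of *CD55* with shXPO7_5, from -0.14 to 0.07 (edgeR, adjusted p = 0.577), and moved *CD59* with shXPO7_5 to -0.07 (edgeR, adjusted p = 0.5028).

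*CFI*, *CFD* and *CFB* stayed at single counts. *CFI* had 5, 3 and 5 counts in shXPO7_3 replicates T, A and B and 7, 8 and 7 in those of shXPO7_5, and its log2 differences from induced cells had 95% intervals from -1.80 to 0.48 and from -0.60 to 1.48. *CFD* had 4, 1 and 5 counts and 5, 2 and 2, which spans the same range as the 5, 1 and 3 of induced cells. *CFB* had 1, 1 and 0 counts and 0, 5 and 1; a count of 0 allows up to 3 counts, or 0.0506 CPM in shXPO7_3 B and 0.101 CPM in shXPO7_5 T, by counting error only.

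The 2 shRNA groups were also set against each other. Here 0 of 7 members passed in edgeR, and 0 in DESeq2, against 0.0131% of all genes (2 genes, of which *XPO7* is 1), and 3 had an unadjusted p below 0.05, as did 11.9% of all genes. The log2 difference, shXPO7_5 minus shXPO7_3, was 0.33 for *C1R* (95% interval 0.14 to 0.51), -0.16 for *CD59* (-0.28 to -0.04) and 1.10 for *CFI* (0.00 to 2.20), each with an edgeR adjusted p of 0.3878. For *CD46* it was -0.33 (-0.71 to 0.05), and with the GC and length offset 0.05.

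The rest of the pathway was read from a list of 52 further complement genes. On induction 19 of them passed the filter and 12 passed the test, 7 higher and 5 lower, against 50.9% of all genes, and the median log2 fold change over the 19 was 0.24. The other 33 had too few counts. *C1QA*, *C1QB* and *C1QC*, whose products form C1q, were at 0 in every library, as were *MBL2* and the ficolin genes *FCN1*, *FCN2* and *FCN3*, which allows up to 0.0506 to 0.106 CPM per library. *C2* had 2 to 8 counts per library, and *C4A* and *C4B*, near-identical copies whose counts are uncertain, at most 6 and 3. Thus *C1R* and *C1S* were abundant in cells with no *C1Q* counts and hardly any of the C4 and C2 on which C1s acts.

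Among fluid-phase regulators, *SERPING1*, which encodes the C1 inhibitor, stood at 10.1, 10.5 and 10.2 CPM in non-induced and at 2.38, 2.62 and 2.88 CPM in induced cells, a fall of 3.88-fold (log2 fold change -1.96, SE 0.147; edgeR, adjusted p = 3.179e-07). That is close to the 3.91-fold of *C1R*, whereas *C1S*, the other C1 protease, fell 1.86-fold. *CLU* (clusterin), which binds terminal complement complexes in plasma, fell 3.26-fold, from 572 ± 50.8 to 176 ± 0.892 CPM (edgeR, adjusted p = 7.704e-09). Of the 4 fluid-phase regulators tested, 2 fell and 0 rose, on a background of 26.1% of all genes lower and 24.8% higher.

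Of 9 lectin route genes listed, 3 were tested, and each passed, on a background of 50.9% of all genes. *COLEC10*, a soluble collectin, rose 2.68-fold, from 7.04 ± 0.832 to 18.9 ± 1.43 CPM (edgeR, adjusted p = 2.075e-06), and *COLEC12*, a membrane collectin that acts as a scavenger receptor, rose 2.20-fold, from 6.03 ± 0.316 to 13.3 ± 0.764 CPM (edgeR, adjusted p = 3.121e-07). *MASP1*, a protease of the same route, fell 2.03-fold, from 7.05 ± 0.423 to 3.45 ± 0.443 CPM (edgeR, adjusted p = 1.329e-05). *C1RL*, which encodes a C1r-like protease, fell 1.82-fold, from 16.3 ± 0.517 to 8.97 ± 0.723 CPM (edgeR, adjusted p = 5.288e-06), and shares exons with *C1R*. Of the receptors, *C1QBP*, which encodes a mainly mitochondrial protein that can bind C1q, rose 1.28-fold, from 123 ± 8.23 to 158 ± 2.58 CPM (edgeR, adjusted p = 0.005781; 0.26 on the log2 scale and adjusted p = 0.07704 with upper-quartile factors).

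The other 5 that passed were scarcer and are named after their values were seen. The C3a receptor *C3AR1* rose from 0.335 to 1.04 CPM and *ITGAX*, a subunit of complement receptor 4, from 0.128 to 0.976 CPM, on 37 and 14 non-induced counts in all. *CSMD1* and *CSMD3* rose to 0.866 and 0.514 CPM, *CSMD3* losing its call when any of 5 libraries was left out (adjusted p of up to 0.1181 in edgeR), and *C5*, the first protein of the terminal route, fell from 4.75 to 1.90 CPM. *C3AR1* and *ITGAX* are also expressed by leukocytes, and the leukocyte marker *CSF1R* moved with them, from 0.354 to 0.844 CPM (edgeR, adjusted p = 0.004348); its part in these results was not tested.

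**Figure D5:**
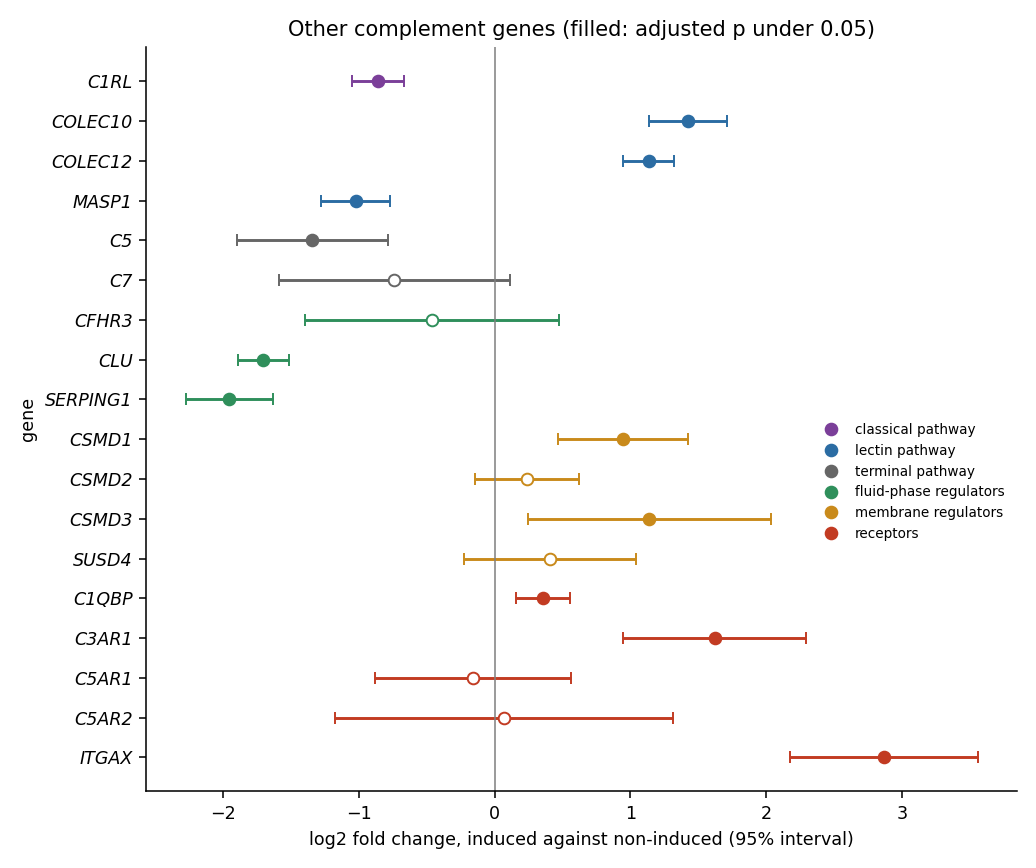
Log2 fold change on induction, with 95% interval, of tested complement genes outside the 9, by role. Filled points passed at an adjusted p of 0.05, with 7 higher (right) and 5 lower (left); *ITGAX* (2.87) and *SERPING1* (-1.96) are the extremes.

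With the shRNAs, 1 of these 19 genes passed in each comparison, and it was *COLEC12* in both. Of all genes tested, 0.124% passed with shXPO7_3 and 0.589% with shXPO7_5. It stood at 19.3, 19.4 and 21.0 CPM in shXPO7_3 replicates T, A and B and at 17.1, 19.0 and 17.2 CPM in those of shXPO7_5, against 12.4, 13.9 and 13.5 CPM in induced replicates T, A and B. All 6 knockdown libraries were above all induced ones. The log2 fold change was 0.59 for shXPO7_3 (SE 0.081; edgeR, adjusted p = 0.02434) and 0.42 for shXPO7_5 (SE 0.081; edgeR, adjusted p = 0.04415), against the same induced libraries. The size held when any 1 library was left out, at 0.54 to 0.62 and 0.37 to 0.46, but the calls did not: that for shXPO7_3 was lost in each of 6 such fits (edgeR, adjusted p of 0.06196 to 0.2009), and that for shXPO7_5 in 5 of 6, with shXPO7_5 A left out the exception.

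The genes whose levels were most like each member over the 12 libraries were found by Pearson correlation of log2 CPM among genes of at least 2 in average log2 CPM. The values are descriptions; the points share libraries, 3 of them non-induced and 9 induced. For *C1R* these were *ELN* (r = 0.998), *SPEG* (0.998) and *HSPB6* (0.997), and for *C1S* *FZD7* (0.998), *ANKRD13A* (0.998) and *MYLK* (0.998). *C1R* and *C1S* had a correlation of 0.990 with each other. For *C3* they were *TMEM171* (0.967), *RHBDD1* (0.945) and *RPL23AP82* (0.941). For *CD46* they were *OSBPL11* (0.990), *NAE1* (0.988) and *SRPK1* (0.987), for *CD55* *ZNF699* (0.988), *ATG4A* (0.986) and *BRAP* (0.979), and for *CD59* ENSG00000268205 (0.935), *ITGB1BP1* (0.912) and *NPEPPS* (0.911). *CD46* and *CD55* had a correlation of 0.697. For *CFI*, at 3 to 15 counts per library, no gene exceeded 0.793 (*OSBPL7*), followed by ENSG00000260415 (0.788) and *PCDH7* (0.775).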

How the data were processed

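The authors deposited raw counts of reads per gene in 12 libraries. According to the submitters' processing notes, the tools were featureCounts 1.18.0, TopHat2 2.0.11 and CASAVA 1.8.4, and the builds hg19 and GRCh37; for the annotation, the strand setting and shared or multi-mapped reads, details were not given in the sources used here. Libraries were made with a stranded mRNA kit.

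Groups were taken from the sample labels. All 12 libraries entered 1 fit in edgeR 4.0.16 (R 4.3.3; filterByExpr, TMM factors, quasi-likelihood test), with Benjamini-Hochberg adjustment over 15284 genes and a threshold of 0.05. SE is the log2 fold change divided by the root of the F statistic. For scarce genes such as *C3* edgeR bounds the p-value by a Poisson limit, so interval and p can differ. CPM are counts scaled to the TMM-adjusted library total, and correlations used log2 CPM with a prior count of 2. The test was tried on simulated counts first. The median library held 35319409 counts. Limits given for counts of 0 cover counting error only. Intervals of log2 fold changes were built from the SE and so also include the scatter between libraries. Spike-in entries (92) held 0 counts. No replicate library was a repeat of another within sampling noise.

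Symbols came from a gene name table by Ensembl identifier; exon length, GC content and positions came from GENCODE on GRCh38, another build than that of the counts, and were joined by identifier. The GC and length offset was a spline of 5 degrees of freedom per library, with values for 97.3% of the genes tested. The 9 members and all lists were chosen with earlier results of these data known. Genes named outside the 9 were complement genes that passed on induction (average log2 CPM at or above 2) or passed in a knockdown comparison, and the 3 most similar genes per member. Scarcer genes that passed on induction, and genes at or near 0 counts, are named beside them. Alternatives comprised other scaling factors, filters, DESeq2 1.42.0, a replicate block, the offset, fits of 2 groups, and leaving out libraries. Values of 1 listed complement gene are not reported here.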

Additional observations from a re-analysis of the deposited data

Results flagged for a closer look

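*CFI* lay on different sides of the induced mean with the 2 shRNAs, although neither difference from induced cells passed (log2 -0.66 and 0.44; edgeR, adjusted p = 0.9995 and 0.5443) and both groups overlapped the induced libraries: each shXPO7_3 library was below the mean of the induced libraries (0.179 CPM) and each shXPO7_5 library above it. The mean with shXPO7_5 was 2.14 times that with shXPO7_3 (0.223 against 0.104 CPM), on 22 and 13 counts. The direct comparison did not pass (log2 difference 1.10, SE 0.504; edgeR quasi-likelihood test, adjusted p = 0.3878, and 0.152 to 1 over 14 alternatives). Groups of 3 libraries were not tested for single outlying libraries.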

How the results depend on the processing

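Across 15 alternatives to the comparison of induced with non-induced cells, 4 to 7 of the 7 tested members passed, against 6; *C3*, *C1R*, *C1S* and *CD55* passed in all 15, *CD46* and *CD59* in 11, and *CFI* in 3 of 14, with the GC and length offset (-1.04, edgeR, adjusted p = 0.04647) or without non-induced T or induced A. No tested member that passed changed sign. With 1 library left out the members passing with shXPO7_5 ranged from 0 to 2 (2 without shXPO7_5 A: *C1R* and *CD46*), and in the other 2 knockdown comparisons 0 passed in each of 16 alternatives. Beyond these, 19 values of members that had not passed changed sign. *CFD* entered the fit and passed (-1.82, edgeR, adjusted p = 0.02339) without non-induced C.

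Counts of all genes called were less stable with the shRNAs: 1 to 481 for shXPO7_3 (main 19), 1 to 3634 for shXPO7_5 (main 90) and 0 to 69 between them (main 2), highest without shXPO7_5 A for shXPO7_5 and with the replicate block and offset together for the other 2; DESeq2 gave 97, 458 and 28. On induction they ran from 6735 to 9898, and upper-quartile factors moved the share of calls that were higher from 48.8% to 38.3%. Whether the shared letters of replicates pair the libraries is not stated. Same-letter correlations of deviations were 0.204 and 0.212 on induction, -0.017 to 0.061 for shXPO7_3, -0.071 to 0.185 for shXPO7_5 and -0.234 to 0.368 between them. Some libraries correlated best with their own letter and others did not. With 3 libraries per group such correlations cannot settle whether the letters pair them. A replicate block gave 7987, 13, 149 and 3 calls in the 4 comparisons and 6, 0, 0 and 0 members, changing no member's call. Counts summed over identifiers gave no separate value, since each member has 1. Depth limits *CFB*, *CFD* and *CFI* (at most 15 counts) and, less so, *C3*.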
